A study of Homo sapiens with 18 samples.

Results

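The experiment compared U937 cells carrying a lentiviral short hairpin RNA against S100A9 (3 libraries, shS100A9) with U937 cells carrying the empty vector (3 libraries), 6 of the 18 libraries of the series. U937 is an established human monocytic line, labelled as acute myeloid leukemia. Per the labels' protocols, both vectors were delivered by lentivirus, and puromycin at 2 µg/mL was begun after 48 hours and kept for at least 24 hours. The genotype label of the control cells is WT, although they carry the empty vector and went through the same selection. The labels give neither the hairpin sequence, nor the number of hairpins, nor whether the selected cells were a pool or a clone, and column headers in the table call the knockdown libraries "si". No label says that the 3 libraries of a group came from separate cultures, so each p-value reflects how far these samples lie apart, a spread that may be only technical. The members of the comparison were all 18670 genes of the count table, of which 13016 had enough counts to be tested.

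S100A9 encodes a small calcium-binding protein of neutrophils and monocytes that pairs with S100A8 to form calprotectin. The pair is stored in the cytosol of myeloid cells, and once released it acts as an alarm signal through Toll-like receptor 4 and the receptor AGER, with IRAK kinases and NF-kB downstream. In myeloid leukemia cells S100A8 and S100A9 have been studied for links to differentiation and drug response.

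The targeted gene followed the labels. S100A9 (ENSG00000163220) lies at chr1:153357854-153361027 on the plus strand of GRCh38 in GENCODE 29. In empty vector libraries 1, 2 and 3, the order used for every triple of values here, it had 281, 231 and 342 counts, and in the shS100A9 libraries 12, 26 and 5. In CPM (counts per 1e6 counts of a library whose size is scaled by its TMM factor) these were 6.83, 4.49 and 7.10 against 0.215, 0.400 and 0.0595. The lowest control library stood above the highest knockdown library, and the log2 fold change was -4.79 (SE 0.62, edgeR quasi-likelihood test with Benjamini-Hochberg adjustment, adjusted p = 0.0205). S100A8 was at 0.559, 0.466 and 0.747 CPM in the controls and at 0.340, 0.292 and 0.0595 CPM in the knockdown. The S100A8 groups did not overlap, but its log2 fold change of -1.38 missed the threshold (edgeR adjusted p = 0.371). S100A12, a neighbouring gene of the same family, had between 0 and 5 counts in every library and was not tested.

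The controls held 41.9 to 49.5 M counts each, where M is 1e6, and the knockdown libraries 56.8 to 82.0 M. Within each group 1 library stood apart. The chi-square of the counts divided by its degrees of freedom, which is near 1 for sampling noise alone, was 8.17 between empty vector 1 and 3, and 140 and 148 between empty vector 2 and these libraries. It was 13.5 between shS100A9 1 and 2, and 178 and 240 between shS100A9 3 and these libraries. No pair agreed within sampling noise, so each library was counted once. Counts are therefore given over the 6 libraries and over the 4 libraries that remain without empty vector 2 and shS100A9 3, an alternative chosen after the data were seen. The 2 excluded libraries then served as a pair of their own that the 4-library fit had not used, with 1 library a side and so no test.

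**Figure D1:**
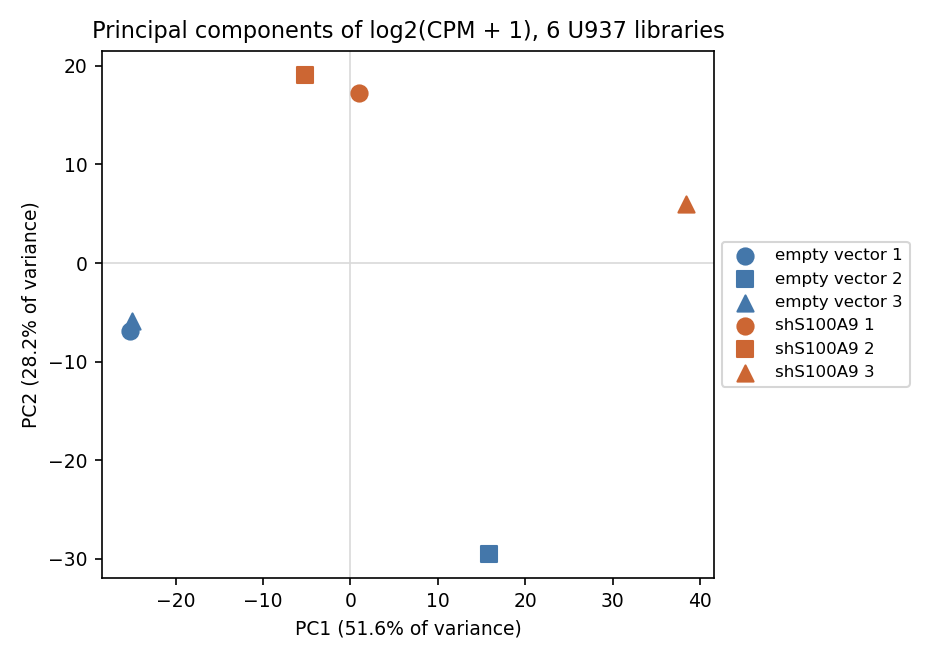
Principal components 1 and 2 of log2(CPM + 1) over all tested genes; each point is 1 library, blue for empty vector and orange for shS100A9, with a marker for each replicate number. Empty vector 2 sits at 15.9 on component 1, far from the other controls at -25.2 and -25.0, and shS100A9 3 sits at 38.4, far from the other knockdown libraries at 1.0 and -5.2; component 2 places the 3 knockdown libraries above the 3 control libraries.

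The plot of principal components shows both features at once. Component 1 held 51.6% of the variance and set the 2 deviating libraries apart on the same side. Component 2 held 28.2% and separated the groups, with controls at -6.9, -29.5 and -5.9 and knockdown libraries at 17.2, 19.1 and 6.0. The median gene had a within-group SD of log2(CPM + 1) of 0.166 in the controls and 0.163 in the knockdown. Between empty vector 1 and 3 alone the median SD was 0.042, and between shS100A9 1 and 2 alone it was 0.059.

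More genes were lower than higher after the knockdown among those that passed. Of 13016 genes tested over the 6 libraries 231 passed (1.77%): 201 were lower (1.54%) and 30 were higher (0.23%) in shS100A9. Of the 201, 114 were at least 2-fold lower and 43 at least 10-fold lower, and 20 of the 30 were at least 2-fold higher. The groups did not overlap for 1543 genes in the lower direction (11.9%) and for 1380 in the higher direction (10.6%). The excess of lower genes depended on the deviating libraries and on the tool. Over 4 libraries 4296 of 13055 genes passed (32.9%), 2308 lower (17.7%) and 1988 higher (15.2%), and these included all 231 genes of the 6-library fit with the same direction. DESeq2 on the 6 libraries called 607 genes lower (4.67%) and 272 higher (2.09%), and limma voom with quality weights 2618 lower (20.1%) and 2505 higher (19.2%). At an unadjusted p under 0.05 edgeR gave 1090 lower (8.37%) and 767 higher (5.89%). These shares are the background for every count of list members below. The number of calls also moved with single libraries. It was 18 lower and 0 higher without empty vector 1, 20 and 0 without empty vector 3, 20 and 1 without shS100A9 1, and 20 and 1 without shS100A9 2. It was 255 lower and 107 higher without empty vector 2, and 150 lower and 21 higher without shS100A9 3.

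The left-out pair gave a separate reading of the 4-library calls. Of all 2308 lower calls 79.6% had the same sign in shS100A9 3 minus empty vector 2, and of all 1988 higher calls 69.3%. Of the genes called at least 2-fold lower in the 4 libraries, 248 of 279 (88.9%) were also lower in shS100A9 3 than in empty vector 2, against 48.9% of all tested genes. At least 1.5-fold lower on the log2(CPM + 1) scale, which shrinks changes at low CPM, were 156 of them (55.9%), against 6.76% of all tested genes. For genes called at least 2-fold higher in the 4 libraries, 135 of 202 (66.8%) were higher in shS100A9 3 than in empty vector 2, against 51% of all tested genes. Of these 202, 54 (26.7%) were at least 1.5-fold higher there on the same scale, against 6.23% of all tested genes, and 20 (9.9%) were at least 1.5-fold lower.

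A set of 17 genes, all lower, passed in each of the 6 fits that left out 1 library. AFDN encodes afadin, a scaffold that ties cell junctions to actin and binds RAP proteins. Its controls stood at 25.5, 27.6 and 24.6 CPM and its knockdown libraries at 0.376, 0.231 and 0.298 CPM (adjusted p = 0.00015, edgeR). RAPGEF6, an exchange factor that activates RAP proteins, was at 12.0, 10.9 and 11.8 CPM in the controls and at 0.0358, 0.0615 and 0 in the knockdown. SPRED1, which restrains RAS-MAPK signalling, had 231, 315 and 358 counts in the controls and 3, 0 and 0 in the knockdown. All 3 genes were close to absent in every shS100A9 library, including the deviating one. GPR85, an orphan G protein-coupled receptor, had 390, 320 and 439 counts against 0, 0 and 3. The surface protein CD109 was at 16.9, 26.5 and 16.7 CPM in the controls and at 0.644, 0.185 and 0.262 CPM in the knockdown. SNRPN, an imprinted gene of chromosome 15 for a spliceosomal protein, was at 17.2, 22.6 and 20.6 against 0.0358, 0.108 and 0.179 CPM. Its values may share reads with overlapping transcripts of that region.

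**Figure D2:**
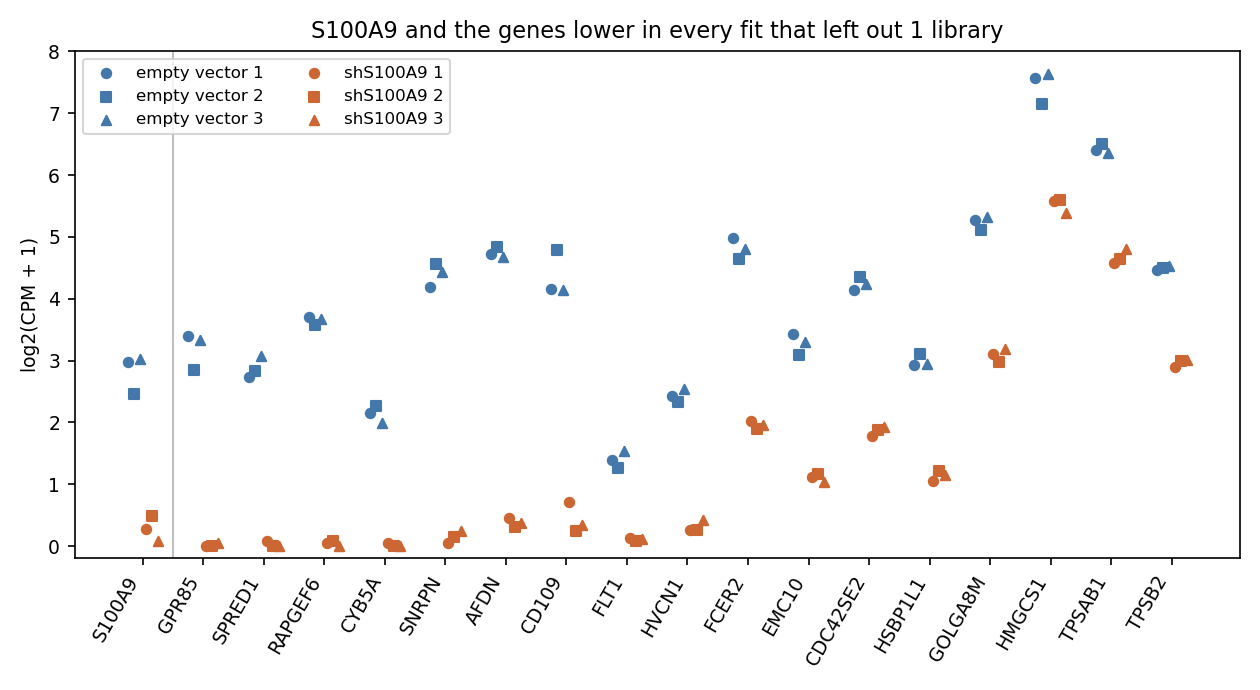
log2(CPM + 1) of S100A9 and of the 17 genes that were lower in all 6 fits leaving out 1 library; each point is 1 library, blue for empty vector and orange for shS100A9. For every gene shown the 3 control points lie above the 3 knockdown points; S100A9, left of the line, passed with all 6 libraries but not in every fit with 1 left out.

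Other genes of this set fell to a lower but measurable level. FCER2, the low-affinity IgE receptor (CD23), was at 30.7, 24.0 and 26.8 CPM in the controls and at 3.04, 2.72 and 2.88 CPM in the knockdown. This is a log2 fold change of -3.24 (SE 0.15, edgeR adjusted p = 0.000772). CDC42SE2, a small effector of the GTPase CDC42, went from 16.7, 19.4 and 17.8 to 2.42, 2.69 and 2.80 CPM, 6.80-fold. EMC10, a subunit of the complex that inserts membrane proteins into the endoplasmic reticulum, went from 9.72, 7.48 and 8.82 to 1.16, 1.25 and 1.06 CPM, 7.50-fold. HSBP1L1 went from 6.64, 7.57 and 6.71 to 1.07, 1.32 and 1.21 CPM. GOLGA8M was at 37.6, 33.6 and 39.0 against 7.64, 6.83 and 8.12 CPM, but it belongs to a family of near-identical copies on chromosome 15 whose reads may be shared. The tryptase genes TPSAB1 and TPSB2, serine proteases known from mast cell granules, are also near-identical copies. TPSAB1 was at 83.8, 89.5 and 80.8 against 23, 24.0 and 26.8 CPM, 3.45-fold (adjusted p = 0.0017, edgeR). For each of these genes the knockdown values varied far less than the gap between the groups.

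The remaining genes of the set lay under the level set for naming, and they and the others of this paragraph were chosen after their values had been seen. CYB5A, an electron carrier that serves lipid desaturases, was at 3.45, 3.83 and 2.99 CPM in the controls and had 2, 0 and 0 counts in the knockdown. FLT1, a receptor of vascular endothelial growth factor, was at 1.63, 1.40 and 1.89 CPM in the controls and at 0.0895, 0.0615 and 0.0833 CPM in the knockdown. HVCN1, the voltage-gated proton channel of phagocytes, was at 4.35, 4.04 and 4.80 against 0.197, 0.200 and 0.333 CPM, 17.7-fold. CYBB, the catalytic subunit of the phagocyte NADPH oxidase, was at 49.2, 44.0 and 50.7 CPM in the controls and at 10.6, 11.5 and 3.45 CPM in the knockdown. Its call (log2 fold change -2.50, SE 0.42, edgeR adjusted p = 0.0427) was kept in 1 of the 6 fits with a library left out. Some genes had no count at all in shS100A9. KITLG, the ligand of the receptor KIT, had 66, 48 and 50 counts in the controls and 0 in each knockdown library. Set against a floor of 3 counts over the group, which covers counting error only, it was at least 79.6-fold lower. CCL22, a chemokine, had 13, 23 and 13 counts in the controls and was at least 23.8-fold lower by the same floor.

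Among named genes above 5 CPM the rises were smaller than the falls described so far, at 3.02-fold or less. The rule for named genes took KYNU, RYR2, ALDOC, PPFIA4, CACHD1, SHROOM2, ZNF440, ENO2, FMNL2 and OAS2 as the genes with the largest rises above 5 CPM. SHROOM2, an actin-binding protein, stood at 13.7, 15.1 and 12.3 CPM in the controls and at 34.2, 33.6 and 32.1 CPM in the knockdown (log2 fold change 1.28, SE 0.12, edgeR adjusted p = 0.00737). FMNL2, a formin that elongates actin filaments, rose from 11.8, 11.8 and 9.78 to 24.7, 23.3 and 27.9 CPM. RYR2, an intracellular calcium release channel, rose from 30.4, 45.2 and 32.4 to 88.7, 81.4 and 126 CPM. In all 3 genes every knockdown library, the deviating one included, lay above every control. Among genes chosen after their values were seen, CADM1, a cell adhesion molecule, rose from 0.802, 1.11 and 0.747 to 4.42, 3.38 and 5.61 CPM, 5.03-fold. IGF2BP2, an RNA-binding protein, rose from 18.9, 16.6 and 16.7 to 35.1, 34.4 and 34.7 CPM. SMC4, a condensin subunit, rose 1.60-fold from 604, 645 and 599 to 976, 860 and 1120 CPM. No gene that rose kept its call in all 6 fits with a library left out.

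Cholesterol synthesis genes that passed were all lower in shS100A9. Cells make cholesterol from acetyl-CoA through mevalonate, and the genes of the route are switched on together by the factor SREBF2 when membrane sterol is low. Of 21 tested cholesterol synthesis genes 4 were lower and 0 higher over 6 libraries, against 1.54% lower of all genes. At an unadjusted p under 0.05, 16 were lower (8.37% of all genes) and 0 higher. DESeq2 gave 12 lower (4.67% of all genes), and the 4-library fit gave 18 lower (17.7% of all genes) and 0 higher. In 14 of the 21 the groups did not overlap in the lower direction (11.9% of all genes). The 6-library count of 4 moved with single libraries. It was 1 without empty vector 1, empty vector 3, shS100A9 1 or shS100A9 2, 9 without empty vector 2 and 3 without shS100A9 3. The median log2 fold change of the list was -0.93, against 0.01 over all genes tested, and in the left-out pair the median difference was -0.82 on the log2(CPM + 1) scale.

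At the entry of the pathway, HMGCS1, which makes HMG-CoA, was at 188, 141 and 197 CPM in the controls and at 46.6, 47.4 and 40.7 CPM in the knockdown (log2 fold change -1.96, SE 0.15, edgeR adjusted p = 0.00426). Further along, IDI1, the isopentenyl isomerase, fell from 157, 109 and 160 to 60.2, 58.7 and 39.4 CPM. SQLE, the squalene epoxidase, stood at 234, 136 and 238 against 106, 102 and 74.8 CPM, without overlap, and did not pass (edgeR adjusted p = 0.0967). Within the sterol-modifying steps MSMO1 fell from 62.1, 46.0 and 64.6 to 21.0, 20.3 and 17.4 CPM, and SC5D from 55.6, 52.7 and 57.4 to 28.2, 26.6 and 32.1 CPM. LSS, which closes the sterol ring, was at 200, 103 and 197 CPM in the controls and at 110, 120 and 81.7 CPM in the knockdown. Empty vector 2 lay below 2 knockdown libraries, and the difference did not pass (edgeR adjusted p = 0.329). PMVK, GGPS1 and TM7SF2 had log2 fold changes of -0.05, -0.05 and 0.42, and none of the 3 passed in either fit.

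**Figure D3:**
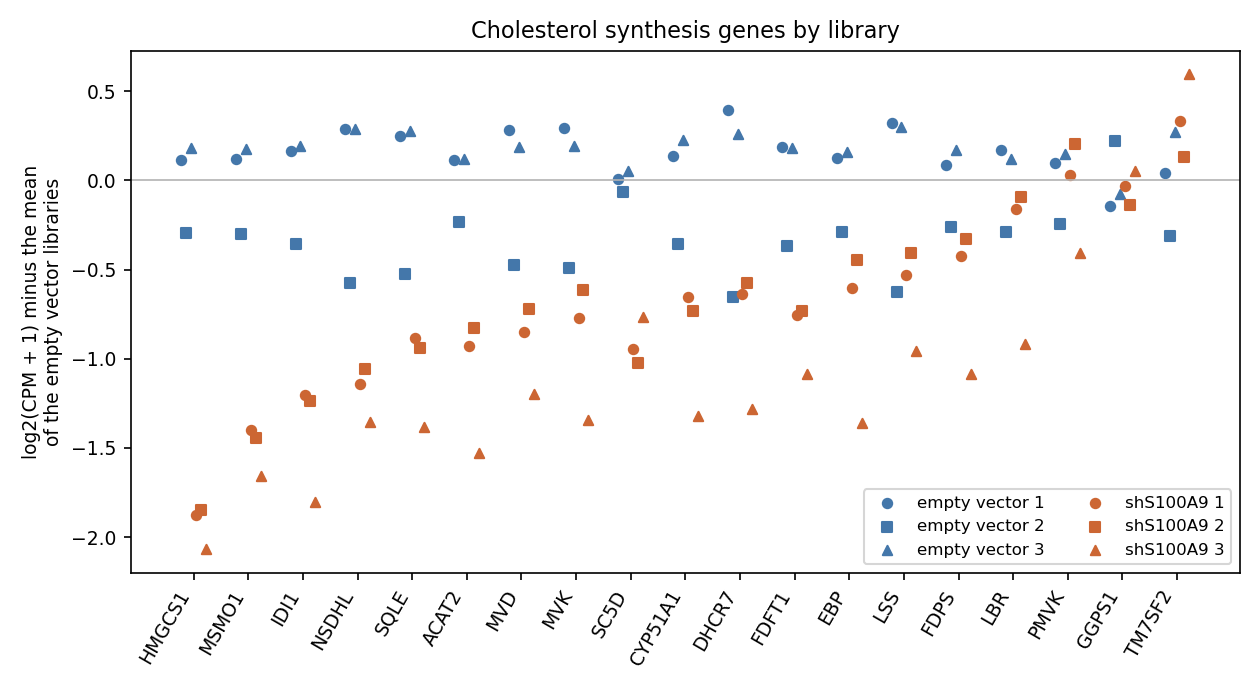
log2(CPM + 1) of 19 tested cholesterol synthesis genes relative to the mean of the empty vector libraries; each point is 1 library, blue for empty vector and orange for shS100A9, with genes ordered by fold change. Empty vector 2 (blue squares) lies below the other controls for most genes and shS100A9 3 (orange triangles) below the other knockdown libraries, while the gap between groups reaches a log2 fold change of -1.96 for HMGCS1 at the left.

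Among 22 tested genes of sterol sensing, uptake and export 3 were lower and 0 higher, with 8 lower and 2 higher at an unadjusted p under 0.05 and 5 lower and 0 higher by DESeq2, against 1.54%, 8.37% and 4.67% lower of all genes. The 4-library fit called 9 lower and 3 higher (17.7% and 15.2% of all genes). INSIG1, which retains the SREBF complex in the endoplasmic reticulum and is itself one of its targets, fell from 688, 283 and 678 to 122, 136 and 96.4 CPM (log2 fold change -2.22, SE 0.35, edgeR adjusted p = 0.0362). NPC1, which exports cholesterol from lysosomes, fell from 147, 109 and 143 to 68.9, 67.7 and 66.8 CPM. STARD4, a sterol carrier, fell 1.74-fold. The regulators themselves differed less. SREBF2 had a log2 fold change of -0.28, SCAP of -0.05 and SREBF1 of 0.11, and none of the 3 passed over 6 libraries. Of 15 tested fatty acid synthesis genes, 0 passed in either direction by edgeR, 4 were lower and 0 higher at an unadjusted p under 0.05, and 3 were lower by DESeq2. Over the 4 libraries 11 of the 15 were lower and 1 higher (17.7% and 15.2% of all genes), with a list median of -0.42. SCD, the stearoyl-CoA desaturase, was at 1960, 1020 and 1970 against 1100, 1010 and 725 CPM.

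Both deviating libraries had lower sterol gene levels than the rest of their own group. The median deviation of the cholesterol list from the other 2 libraries of the group was -0.53 for empty vector 2 and -0.51 for shS100A9 3 on the log2(CPM + 1) scale. The part of this shift in the missed calls was not tested.

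The few receptors and myeloid effector genes that passed were lower, the direction of 87.0% of all calls over the 6 libraries. Among 14 tested receptors and adaptors of S100A8 and S100A9, IRAK1 was the 1 called gene, and it was lower (1.54% of all genes). The 4-library fit gave 3 lower and 1 higher. IRAK1, a kinase of the Toll-like receptor pathway, stood at 285, 284 and 291 CPM in the controls and at 141, 152 and 104 CPM in the knockdown (log2 fold change -1.12, SE 0.15, edgeR adjusted p = 0.0242). TLR4 was at 77.2, 53.8 and 80.7 against 84.5, 83.7 and 80.6 CPM, and AGER at 4.91, 5.57 and 5.17 against 6.48, 5.58 and 9.53 CPM. Neither passed (adjusted p = 0.579 and 0.433). CD36, a scavenger receptor also used by these proteins, was at 28.4, 13.3 and 30.0 against 7.09, 8.71 and 2.00 CPM. Its groups did not overlap, but it passed in the 4-library fit and not over 6 libraries (adjusted p = 0.164).

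Of 17 tested monocyte and macrophage markers 1 was lower and 0 higher, with 6 lower and 1 higher at an unadjusted p under 0.05 and 5 lower and 1 higher by DESeq2, against 1.54%, 8.37% and 4.67% lower of all genes. The 4-library fit called 7 lower and 4 higher (17.7% and 15.2% of all genes). The called gene was CD68, a glycoprotein of macrophage lysosomes, at 90.8, 116 and 88.1 against 46.0, 47.1 and 39.1 CPM. Lysozyme (LYZ) was at 489, 242 and 521 against 199, 196 and 142 CPM and did not pass (adjusted p = 0.124). CD4 was at 139, 164 and 135 against 216, 206 and 302 CPM, in the other direction, and did not pass either (adjusted p = 0.115). Of 11 tested azurophil granule genes 1 was lower: ELANE, the neutrophil elastase, fell from 264, 150 and 249 to 51.7, 54.3 and 72.9 CPM (log2 fold change -1.89, SE 0.25, edgeR adjusted p = 0.0214). CTSG, another protease of these granules, stood at 1410, 599 and 1490 against 1180, 1240 and 1140 CPM, with groups that overlapped. Over the 4 libraries 8 granule genes were lower and 1 higher (17.7% and 15.2% of all genes). The granule list was lower in empty vector 2 than in the other controls, by a median of -0.77 on the log2(CPM + 1) scale. Of 18 tested Fc receptors, ITAM adaptors and their kinases FCER2 and FCER1G were lower and 0 higher, with 4 lower and 0 higher at an unadjusted p under 0.05 and by DESeq2, and 6 lower and 4 higher over the 4 libraries (17.7% and 15.2% of all genes). FCER1G, the signalling chain shared by Fc receptors, fell 1.93-fold from 41.1, 45.9 and 42.0 to 24.2, 22.6 and 20 CPM. In bulk libraries fewer cells of a state and less RNA per cell cannot be told apart.

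The interferon-stimulated genes that passed went in both directions, though only 1 was lower. Type I interferon switches these genes on through a complex of STAT proteins and IRF9, which binds the interferon-stimulated response element in promoters. Of 46 tested genes of the response 2 were higher (0.23% over all genes) and 1 lower. At an unadjusted p under 0.05, 7 were higher and 1 lower (5.89% and 8.37% of all genes). DESeq2 gave 4 higher and 1 lower (2.09% and 4.67% of all genes). IFI44, an interferon-induced cytosolic protein, stood at 0.243, 0.311 and 0.166 CPM in the controls and at 3.35, 3.63 and 7.01 CPM in the knockdown (log2 fold change 4.27, SE 0.44, edgeR adjusted p = 0.0102). OAS2, an antiviral enzyme, rose from 3.77, 4.95 and 3.76 to 9.25, 8.63 and 9.81 CPM. XAF1, an interferon-induced protein that promotes apoptosis, went the other way, from 2.82, 6.91 and 3.45 to 0.0358, 0.0615 and 0.119 CPM (log2 fold change -5.82, SE 0.58, edgeR adjusted p = 0.00965). For IFI44 and XAF1 all 3 knockdown libraries lay on 1 side of all 3 controls. Other genes of the response did not pass, and among them ISG15, an interferon-induced ubiquitin-like protein, was at 4.69, 3.71 and 4.65 against 3.72, 4.54 and 2.71 CPM. The list median was 0.16 over 6 libraries, and the 4-library fit gave 17 higher and 2 lower (15.2% and 17.7% of all genes).

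The 200 bases before the annotated start of the 2 genes that moved apart are shown because they differ in this element. The sequences are from RefSeq on GRCh38.p14, read 5′ to 3′ on the gene's strand, with the match to the element in capitals. IFI44 is shown at chr1:78649589-78649788 on the plus strand, and XAF1 at chr17:6755247-6755446 on the plus strand.
IFI44: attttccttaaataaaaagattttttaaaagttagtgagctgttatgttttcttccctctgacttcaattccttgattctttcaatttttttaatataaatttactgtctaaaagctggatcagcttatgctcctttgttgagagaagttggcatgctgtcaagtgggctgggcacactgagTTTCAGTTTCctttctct
XAF1: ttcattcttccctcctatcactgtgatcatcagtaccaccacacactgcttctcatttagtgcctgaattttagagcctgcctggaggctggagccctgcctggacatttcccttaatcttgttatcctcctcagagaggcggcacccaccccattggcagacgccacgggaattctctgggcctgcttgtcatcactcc
The element was searched on both strands as GAAA, any 2 bases and GAAA in windows from 250 bases before to 50 bases after each start. At least 1 match was found for 27 of 38 genes of the response with a window (71.1%), against 4.38% of all 27305 genes with a window. IFI44 was the only gene of these 27 that passed over 6 libraries, and OAS2, the other higher gene, was not among them. Among the genes called lower, 9 of 173 with a window (5.2%) held it. IFI44 has 2 overlapping windows that share 1 match, on the minus strand, and in the 2 windows of XAF1 these letters were not found, which says nothing about the factors that act there. The sterol regulatory element, searched on both strands as TCACNCCAC, was found in 0 of 17 cholesterol synthesis genes with a window, against 1.39% of all genes. Of 19 genes of sterol sensing, uptake and export with a window, 1 held it (5.26%), SREBF2. As for XAF1, letters that were not found say nothing about the factors that act there.

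NF-kB targets, taken as a list, were high in 4 libraries, of which 1 was a control. The factor NF-kB is held in the cytosol by inhibitors such as NFKBIA, and its activation induces cytokines, chemokines and its own inhibitors. Of 29 tested genes 0 were higher and 1 lower (NFKBIE) over 6 libraries, with 5 higher and 1 lower at an unadjusted p under 0.05 and 3 higher and 1 lower by DESeq2, against 5.89% higher of all genes at the unadjusted p and 2.09% by DESeq2. Over the 4 libraries 20 were higher and 2 lower (15.2% and 17.7% of all genes). Without empty vector 2 alone 10 were higher, and without any other single library 0. The call of NFKBIE was kept in 1 of the 6 fits with a library left out. CXCL10, a chemokine, was at 3.74, 85.7 and 3.30 CPM in the controls and at 77.3, 74.4 and 49.0 CPM in the knockdown. TNFAIP3, an inhibitor of NF-kB signalling, was at 21.0, 113 and 20 against 97.6, 83.3 and 62.1 CPM. BIRC3, an inhibitor of apoptosis, was at 2.09, 22.4 and 3.13 against 23.9, 19.3 and 22.8 CPM. In all 3 genes empty vector 2 was at or near the knockdown level while the other controls were several times lower. Not every member had this pattern. CXCL8 was at 5.76, 6.82 and 5.88 against 3.54, 3.72 and 0.666 CPM. TNF, at 2.33, 0.738 and 2.30 against 2.51, 3.11 and 0.393 CPM, was lowest in the deviating libraries. The summed level of the list was 862, 1500 and 862 CPM in the controls and 1300, 1240 and 1250 CPM in the knockdown. In the left-out pair the list median was -0.32 on the log2(CPM + 1) scale, opposite in sign to the 0.50 of the 4-library fit. The direction for this list thus rests on which control libraries are used.

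**Figure D4:**
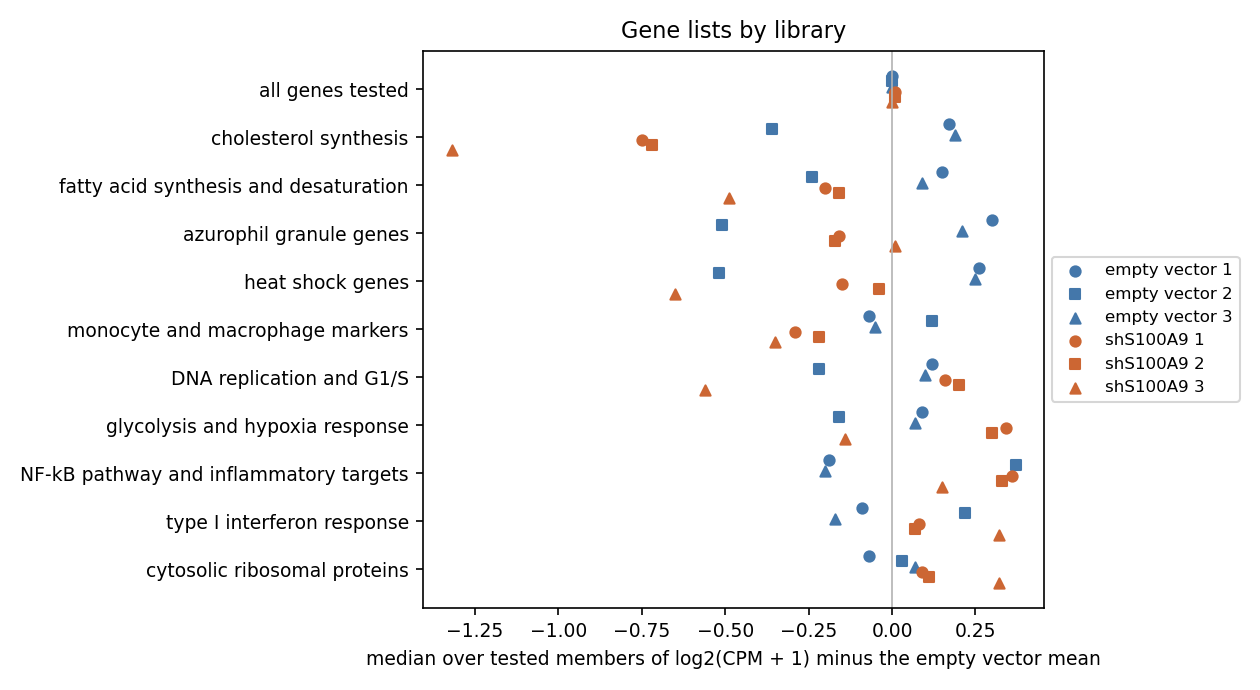
Median over the tested members of each gene list of log2(CPM + 1) relative to the mean of the empty vector libraries; each point is 1 library, blue for empty vector and orange for shS100A9. The cholesterol list is at -0.75, -0.72 and -1.32 in the knockdown libraries, below every control, while in the NF-kB list empty vector 2 at 0.37 lies with the knockdown libraries at 0.36, 0.33 and 0.15.

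Genes with the largest spread inside a group show what set the deviating libraries apart. In empty vector 2 TXNIP, an inhibitor of thioredoxin and glucose uptake, was at 560 CPM against 86.8 and 89.5 in the other controls, with 169, 142 and 261 in the knockdown. P2RX7, an ATP-gated channel, was at 142 CPM there against 25.4 and 25.3. HNRNPM, a splicing factor, was low in both deviating libraries, at 144 CPM in empty vector 2 against 470 and 466, and at 134 CPM in shS100A9 3 against 430 and 463. YPEL5 was high in both, at 73.1 CPM against 17.5 and 16.3, and at 73.0 CPM against 23.1 and 19.4. Over all tested genes the deviation of empty vector 2 from the other controls and that of shS100A9 3 from the other knockdown libraries had r = 0.54 across genes, which are not independent replicates. On the log2(CPM + 1) scale, 212 genes in empty vector 2 were at least 2-fold above and 188 at least 2-fold below the rest of the group. In shS100A9 3 these counts were 199 and 194. Of these, 41 were above in both and 54 below in both, and 13 were opposite. Deviations of shS100A9 3 alone included ETV5, a transcription factor downstream of MAPK signalling, at 7.13 CPM against 62.0 and 65.8. NME1-NME2 and SENP3-EIF4A1 also varied widely, from 0 to 68.3 CPM and from 14.8 to 231 CPM among the controls. They are readthrough loci whose reads can belong to the genes they join.

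Several lists varied with the deviating libraries. DNA replication genes (35 tested) had 0 calls in either direction by edgeR, 1 higher and 0 lower at an unadjusted p under 0.05 and 1 higher by DESeq2, and 14 higher and 1 lower over the 4 libraries (15.2% and 17.7% of all genes). Their median was -0.76 in shS100A9 3 relative to the other knockdown libraries and -0.34 in empty vector 2 relative to the other controls, on the log2(CPM + 1) scale. Heat shock genes (20 tested) also had 0 calls by edgeR, with 4 lower and 0 higher at an unadjusted p under 0.05 and 2 lower by DESeq2 (8.37% and 4.67% lower of all genes), and 13 lower and 1 higher over the 4 libraries (17.7% and 15.2% of all genes). The chaperone HSPA8 was at 1340, 369 and 1370 CPM in the controls and at 521, 836 and 292 CPM in the knockdown. Glycolysis and hypoxia genes had 3 of 35 higher and 0 lower over 6 libraries (0.23% higher of all genes) and 21 higher and 1 lower over the 4 (15.2% and 17.7% of all genes). At an unadjusted p under 0.05, 9 were higher and 1 lower (5.89% and 8.37% of all genes). DESeq2 gave 4 higher and 1 lower (2.09% and 4.67% of all genes). The list median was 0.27 in the 4-library fit. In the left-out pair it was -0.02 on the log2(CPM + 1) scale. NDRG1, a hypoxia-induced gene, rose from 119, 120 and 114 to 280, 242 and 189 CPM, and the glycolytic isoform ENO2 from 4.33, 4.99 and 4.57 to 11.5, 10.4 and 10.4 CPM. LDHA was at 837, 477 and 848 against 865, 855 and 362 CPM, low in both deviating libraries. The part of the deviating libraries in these differences was not tested beyond the fits without them.

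Genes of cell death, drug handling and Wnt signalling gave few calls. Over all genes 1.54% were lower by edgeR, 8.37% lower and 5.89% higher at an unadjusted p under 0.05, and 17.7% lower and 15.2% higher over the 4 libraries. Of 15 tested BCL2 family genes 2 were lower and 0 higher, with 3 lower and 0 higher at an unadjusted p under 0.05 and 2 lower by DESeq2, and 4 lower and 3 higher over the 4 libraries. BCL2, an inhibitor of apoptosis, fell from 83.5, 70.7 and 84.2 to 49.8, 47.5 and 48.6 CPM (log2 fold change -0.71, SE 0.11, edgeR adjusted p = 0.0338), and BIK, a promoter of apoptosis, from 2.33, 2.35 and 2.93 to 0.358, 0.569 and 0.238 CPM. Of 19 tested genes of cytarabine uptake and metabolism 0 passed by edgeR, 1 was higher and 3 lower at an unadjusted p under 0.05, and DESeq2 gave 1 higher and 2 lower, and the 4-library fit 5 each. Of 27 tested Wnt and beta-catenin genes 0 passed by edgeR, 1 was higher and 2 lower at an unadjusted p under 0.05, DESeq2 gave 1 each, and the 4-library fit gave 2 higher and 6 lower. Among 31 tested lysosomal genes 3 were lower and 0 higher, with 6 lower and 0 higher at an unadjusted p under 0.05 and by DESeq2, and 9 lower and 4 higher over the 4 libraries. The 3 were NPC1, the acid sphingomyelinase SMPD1 (21.5, 28.1 and 20 against 12.0, 12.5 and 12.5 CPM) and the galactosidase GLA (56.9, 45.7 and 58.2 against 30.9, 28.7 and 26.9 CPM).

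Markers of other lineages were checked in the same libraries. Epithelial markers summed to between 4.38 and 5.88 CPM, with KRT14, KRT17, KRT19 and CDH1 at 0. T and NK cell markers summed to between 113 and 125 CPM, nearly all of it NKG7 at 111 to 124 CPM, with LCK and CD3G at 0. Erythroid markers summed to 225, 99.8 and 228 CPM in the controls and to 213, 245 and 98.5 CPM in the knockdown, lowest in both deviating libraries. Most of this was TFRC, the transferrin receptor that dividing cells use, at 215, 88.0 and 218 against 202, 235 and 87.0 CPM, while HBA1, HBA2 and HBB were at 0. Stromal and endothelial markers summed to between 85.4 and 97.6 CPM, most of it PECAM1, which leukocytes also carry, at 80.1 to 92.6 CPM, with COL1A2, COL3A1, DCN, LUM, CDH5 and KDR at 0. B cell markers summed to between 21.4 and 40.0 CPM and platelet markers to between 3.09 and 6.74 CPM. In each of these 6 lists 0 genes passed by edgeR in either direction. At an unadjusted p under 0.05, 1 epithelial and 1 T and NK cell gene were lower and 2 B cell genes higher, and DESeq2 called 1 epithelial gene lower. MS4A1, a B cell marker, was at 0, whereas the B cell factor PAX5 was at 17.8, 1.28 and 16.3 CPM in the controls and at 19.8, 19.0 and 8.71 CPM in the knockdown. The mast cell and basophil list summed to 111, 116 and 108 CPM in the controls and to 35.6, 36.5 and 42.4 CPM in the knockdown, and 2 of its 7 tested genes, both tryptases, were lower. KIT, the defining receptor of that lineage, was at 2.43, 2.10 and 2.20 against 3.17, 2.41 and 3.67 CPM and did not pass (adjusted p = 0.447).

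Lower genes were unevenly spread over the chromosomes, a pattern looked for after the calls were known. Of the tested genes on the X chromosome 29 of 413 were lower (7.02%), on chromosome 6 37 of 653 (5.67%), on chromosome 18 9 of 177 (5.08%), on chromosome 15 17 of 453 (3.75%) and on chromosome 7 16 of 618 (2.59%). On every other chromosome the share was between 0% and 1.81%. Among the genes lower in every fit with 1 library left out, AFDN and CD109 lie on chromosome 6 and GPR85 on 7. SPRED1, SNRPN and GOLGA8M lie on 15 and HSBP1L1 on 18. Others lie elsewhere, with RAPGEF6, CDC42SE2 and HMGCS1 on 5, TPSAB1 and TPSB2 on 16, and FCER2 and EMC10 on 19. BCL2 and NPC1, given above with their lists, lie on chromosome 18, whose median log2 fold change was -0.18. INSIG1, given above with the sterol genes, lies on chromosome 7. Higher genes numbered at most 4 on any chromosome. The genes were grouped into 230 windows of 5 Mb with at least 20 tested genes each. In 5 windows the median log2 fold change was at or below -0.3, and in 0 windows it was at or above 0.3. The lowest, between 35 and 40 Mb of chromosome 6, had 15 of 40 tested genes lower (37.5%) and 29 with groups that did not overlap in that direction. Its median was -0.62, -0.59 and -0.59 in the knockdown libraries and 0.05, -0.01 and 0.01 in the controls, as log2(CPM + 1) relative to the control mean. All 3 knockdown libraries thus stood at nearly the same level, including the deviating one.

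**Figure D5:**
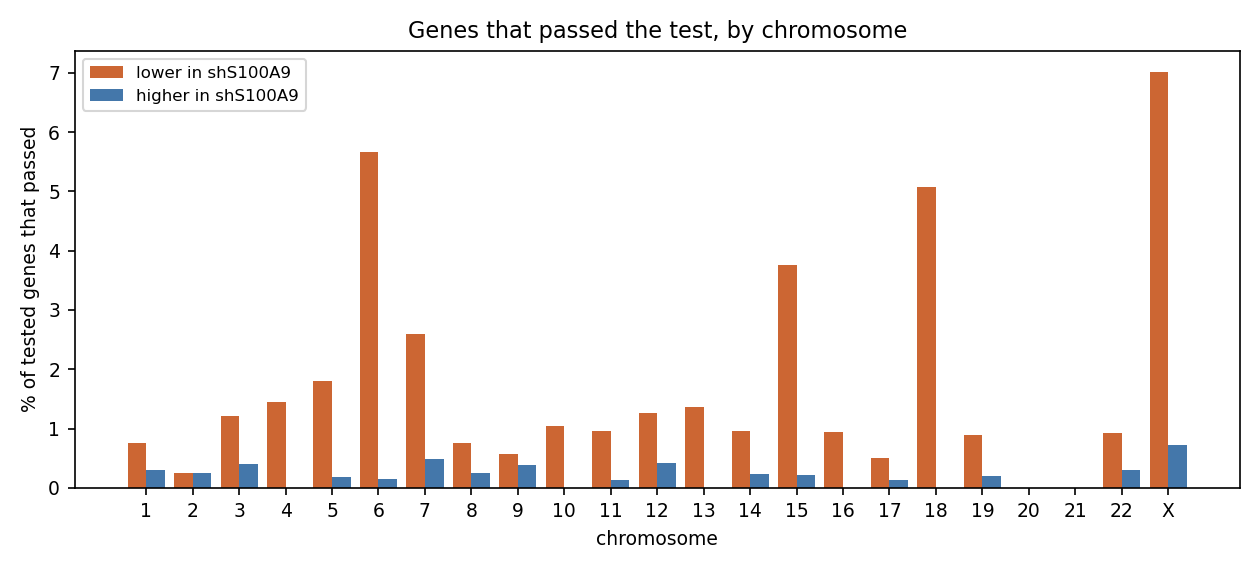
Percentage of tested genes on each chromosome that were lower (orange bars) or higher (blue bars) in shS100A9 by the 6-library edgeR test. The X chromosome (7.02%), chromosome 6 (5.67%) and chromosome 18 (5.08%) have the tallest bars for lower genes, and chromosomes 20 and 21 have none.

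The 5 windows held 208 tested genes, of which 35 were lower (16.8%) and 0 higher. From the window on chromosome 6, GLO1, which detoxifies methylglyoxal, fell from 1580, 881 and 1640 to 470, 472 and 310 CPM. FKBP5, a co-chaperone of steroid receptors, fell from 586, 529 and 590 to 243, 234 and 196 CPM, 2.53-fold (edgeR adjusted p = 0.00737). MAPK14, the p38 alpha kinase, fell 1.54-fold from 300, 313 and 303 to 206, 204 and 183 CPM. PPARD, a nuclear receptor for fatty acids, fell from 63.5, 61.1 and 58.9 to 24.8, 23.2 and 18.2 CPM. IRAK1, described above, lies in another of the windows, between 150 and 155 Mb of the X chromosome, together with EMD and ATP6AP1. NFKBIE and GLA, given above with the NF-kB and lysosomal lists, lie in the windows between 40 and 45 Mb of chromosome 6 and between 100 and 105 Mb of the X chromosome. ATP6AP1, an accessory subunit of the vacuolar proton pump, fell from 173, 190 and 172 to 99.5, 105 and 93.2 CPM. In the other 3 windows, on chromosomes 6, 7 and X, the window medians were -0.53, -0.41 and -0.50. Gene copy number was not measured in these cells. Fewer gene copies and less RNA per copy therefore cannot be told apart for the lower genes, including RAPGEF6 and CDC42SE2 on chromosome 5. On chromosomes 6, 7, 15, 18 and X this covers IRAK1, GLA, NFKBIE and GLO1 in the windows. It also covers genes outside them such as AFDN, BCL2, NPC1 and INSIG1. The genes given for the windows were chosen after their values had been seen, and positions are those of GENCODE 29.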

How the data were processed

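RNA from 6 U937 libraries (3 with empty vector, 3 with shS100A9) was measured by RNA sequencing. The authors deposited whole-number read counts per Ensembl gene, without normalization. HISAT2 2.0.4 is named in the submitters' processing notes; the counter, genome build, annotation and strandedness were not given in the sources used here, so reads of overlapping genes and near-identical copies may be shared. Of 18670 genes, 18114 had a symbol and 18482 a position in GENCODE 29.

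Genes passing filterByExpr were tested on the 6 libraries alone with the quasi-likelihood test of edgeR 4.0.16 in R 4.3.3 (TMM factors, Benjamini-Hochberg adjustment, adjusted p below 0.05). DESeq2 1.42.0, limma 3.58.1 (voom with quality weights), other filters and scalings, a replicate block and fits without 1 library were alternatives. The scripts were tested on simulated data. CPM values use TMM-scaled library sizes, and each SE comes from the fold change and its F statistic. Spread and pair differences used log2(CPM + 1).

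Named genes were S100A9, S100A8 and S100A12; up to 12 genes in each direction called in all 6 fits without 1 library and the 10 with the largest change without overlap, each reaching 5 CPM in its higher group; up to 4 called members of each of 39 lists; and the 8 with the largest spread in each group above 20 CPM. Other list members are examples chosen after their values were seen. Results on some members are not reported here. The comparison, lists and rules were chosen with earlier results of these data known.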

Additional observations from a re-analysis of the deposited data

How the results depend on the processing

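The S100A9 log2 fold change of -4.79 was between -5.54 and -4.30 with 1 library left out (edgeR adjusted p between 0.0201 and 0.136). The count of 30 higher genes was between 0 and 107 with 1 library left out, 272 with DESeq2, 2505 with limma voom and quality weights and 1988 without both empty vector 2 and shS100A9 3, the last chosen after the data were seen. The count of 201 lower genes was between 18 and 255 with 1 library left out, 607 with DESeq2, 2618 with voom and quality weights and 2308 without both libraries. The quality weights gave empty vector 2 a weight of 0.125 and shS100A9 3 a weight of 0.115, against 1.4 to 4 for the others. With another scaling, filter or a robust dispersion the counts were 20 to 30 higher and 145 to 205 lower. The share of lower genes among the calls was 87.0% in the 6-library test, 69.1% with DESeq2, 51.1% with voom and quality weights and 53.7% without both libraries. No gene named by the rules that passed reversed its direction in these alternatives, and the other calls were not compared across all of them. The deviations of same-numbered libraries from their group means had r = 0.29, -0.55 and -0.48, and those of empty vector 2 and shS100A9 3 had r = 0.54. Since these 2 deviating libraries weigh on every r and carry different numbers, the values cannot show whether replicate numbers paired the samples. With the replicate block 0 genes were higher and 3 lower. S100A9 had -4.94 (edgeR adjusted p = 0.169) and lost its call, as did 45 of the other named genes with a call. Why the counts moved was not tested.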

Other observations

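Of 79 tested ribosomal protein genes 28 were higher without overlap between groups and 2 lower, against 10.6% and 11.9% of all genes tested. By edgeR 0 passed, 11 were higher and 2 lower at an unadjusted p under 0.05, DESeq2 gave 1 higher and 1 lower, and voom with quality weights gave 17 higher and 4 lower, against 19.2% higher and 20.1% lower of all genes by voom. The 4-library fit gave 21 higher and 3 lower, against 15.2% and 17.7%. The list median was 0.17. RPL13A was at 1750, 2100 and 1840 CPM in the controls and at 2280, 2290 and 2970 CPM in the knockdown, while RPL10 and RPL10A were lower without overlap (log2 fold changes -0.34 and -0.38, adjusted p = 0.242 and 0.114, edgeR). These 2 genes, on the X chromosome and chromosome 6, were named after their values had been seen.

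Among 8 tested MHC class II genes, which present antigen, HLA-DRB1 was higher, at 10.3, 11.2 and 11.2 against 16.6, 17.7 and 18.2 CPM (log2 fold change 0.68, edgeR adjusted p = 0.0412), and 0 were lower. At an unadjusted p under 0.05, 2 were higher and 1 lower, and DESeq2 gave 2 higher and 0 lower. HLA-DRB1 and HLA-DRB5 are near-identical in parts and may share reads. Of 31 tested genes of the ATF4 amino acid response WARS1, the tryptophanyl-tRNA synthetase, was lower, at 197, 300 and 192 against 111, 114 and 90.3 CPM (adjusted p = 0.048), and 0 were higher, with 1 higher and 5 lower at an unadjusted p under 0.05 and 1 higher and 4 lower by DESeq2. TRIB3, another gene of that response, was at 103, 315 and 95.5 against 78.7, 80.1 and 76.2 CPM, high in empty vector 2.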
